A study of Homo sapiens with 9 samples.

Results

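The 6 control tumours of a study of MRX34, in which liposomes carry a synthetic copy of miR-34a, a tumour-suppressing microRNA, were described together by the level of each transcript. They were 6 of the 9 arrays measured, chosen by their sample names, and consisted of 3 tumours taken after an injection of dilution buffer and 3 taken after empty liposomes. All were grown from Hep3B, an established human hepatocellular carcinoma line, in the livers of Nod/Scid mice, an immunodeficient strain without functional T and B cells. Per the labels the tumours grew for about 5 weeks, their size was judged from AFP in serum at about 80 to 100 mg, and they were taken whole 24 hours after 1 intravenous injection. The remaining 3 arrays were from tumours given MRX34 on the same schedule. No genotype beyond the line and the strain and no age of the mice is given in the sources used here, and the labels do not tell if different arrays are different animals, so every p-value measures the spread between these samples only. The arrays carry human probes, the host liver and its blood vessels are murine, and how far mouse RNA was measured by these probes was not tested.

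Hepatocytes make most proteins of the blood plasma, clear ammonia through the urea cycle, and oxidise drugs, steroids and fatty acids with cytochrome P450 enzymes. The fetal liver makes alpha-fetoprotein, insulin-like growth factor II and the P450 CYP3A7, and after birth the balance moves towards albumin, insulin-like growth factor I and CYP3A4. Liver cancers often make the fetal products again, which is why alpha-fetoprotein is measured in serum. Hep3B is known as a line that secretes alpha-fetoprotein.

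Levels are log2 values of the background-corrected and quantile-normalized intensity, and a gene is shown by its brightest probe. A gene counted as above background on all 6 arrays when 1 of its probes had a detection p under 0.05 on each of them, and on none when no probe had such a p on any array. Of 20555 genes with a name in the RefSeq annotation, 8472 (41.2%) were above background on all 6, 6438 (31.3%) on none and 5645 (27.5%) on some. These shares are the background against which each gene group is read. Among the 18309 protein-coding genes the shares on all 6 and on none were 44.7% and 28.0%. A probe without signal would pass on at least 1 of 6 independent arrays in 26.5% of cases, so a gene above background on 1 array had little standing. Empty liposomes 1 had the fewest genes above background, 9304, and dilution buffer 3 had 10877, while the other 4 control arrays had 11435 to 12680. The mean background-subtracted intensity was also lowest on these arrays, at 173.8 and 266.1, against 347.4 to 658.5 on the others. Without empty liposomes 1, 9997 genes were above background on all remaining controls. Across genes, Pearson's r between pairs of control arrays was 0.929 to 0.983, a description over genes that are not independent. In whole-tumour RNA, fewer cells of a type and less RNA per cell cannot be told apart.

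The tissue label was checked against 13 genes of liver tumours, of which 11 were above background on all 6 arrays. AFP, ALB, GPC3, APOA1, APOB, TTR, SERPINA1, FGB, FOXA2 and KRT8 were among the 11. HNF4A, a nuclear receptor that maintains the hepatocyte programme, was above background on 5 arrays by its best probe, at a mean level of 5.97 for the shown probe. KRT18, the keratin that pairs with KRT8 in simple epithelia, was above background on 3 arrays, with a level of 6.73 on dilution buffer 3 and 4.76 to 5.44 on the rest.

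Plasma protein, apolipoprotein, oncofetal and ribosomal protein genes made up most of the 40 brightest genes. Of the 40, 8 encode plasma proteins or apolipoproteins (ALB, APOA2, TF, APOA1, SERPINA1, AHSG, APOE and AGT), 3 are oncofetal genes (AFP, DLK1 and H19), 17 belong to the ribosomal protein list and 12 to none of these. The top place was held by FTL, the light chain of the iron store ferritin, at 15.42 ± 0.11 (SD, n = 6 arrays). ALB, albumin, followed at 15.38 ± 0.15 and APOA2, an apolipoprotein of high-density lipoprotein, at 15.33 ± 0.12. TF, the plasma iron carrier transferrin, stood at 15.31 ± 0.16, and AFP at 15.31 ± 0.10. The differences between these means were no larger than the SDs between arrays, so their order was not resolved. A brightness rank describes a probe, which binds with its own strength, and is no measure of molecules. SERPINA1, alpha-1-antitrypsin, reached 15.14, AHSG, fetuin-A, 15.14, APOE 15.10 and AGT, angiotensinogen, 15.04. The ribosomal protein genes ran from RPL41 at 15.32 to RPL32 at 14.67, and EEF1A1, ACTG1 and UBB, an elongation factor, an actin and a ubiquitin gene, were also among the 40.

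Several of the 40 rested on 1 probe whose companions were dim. LAIR1, an inhibitory receptor of leukocytes, had a probe at 15.27 on average and a second at 5.09 that was above background on 1 array. ITIH5, an inter-alpha-trypsin inhibitor heavy chain, had 1 probe at 14.79 and 4 probes above background on no array. F2R, the thrombin receptor, had probes at 15.09 and 5.87. For CLUAP1, a ciliary protein, the brightest of 5 probes stood at 15.17 and the next at 6.65, and for MSH3, a mismatch repair protein, the 2 probes stood at 14.71 and 6.59. FAM177A1 had 1 probe at 14.77 and the next at 7.07. The transcript bound by each bright probe was not checked, because probe sequences were not used here, and these genes cannot be called abundant from 1 probe. RPL41 and ACTG1 also had a second probe at 7.31 and 8.35, so such gaps occurred among housekeeping genes too. Over all genes, 7012 had more than 1 probe and 3532 of these were above background on all 6 by at least 1 probe. In 1312 of the 3532 (37.1%), another probe of the same gene was above background on no control array.

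**Figure D1:**
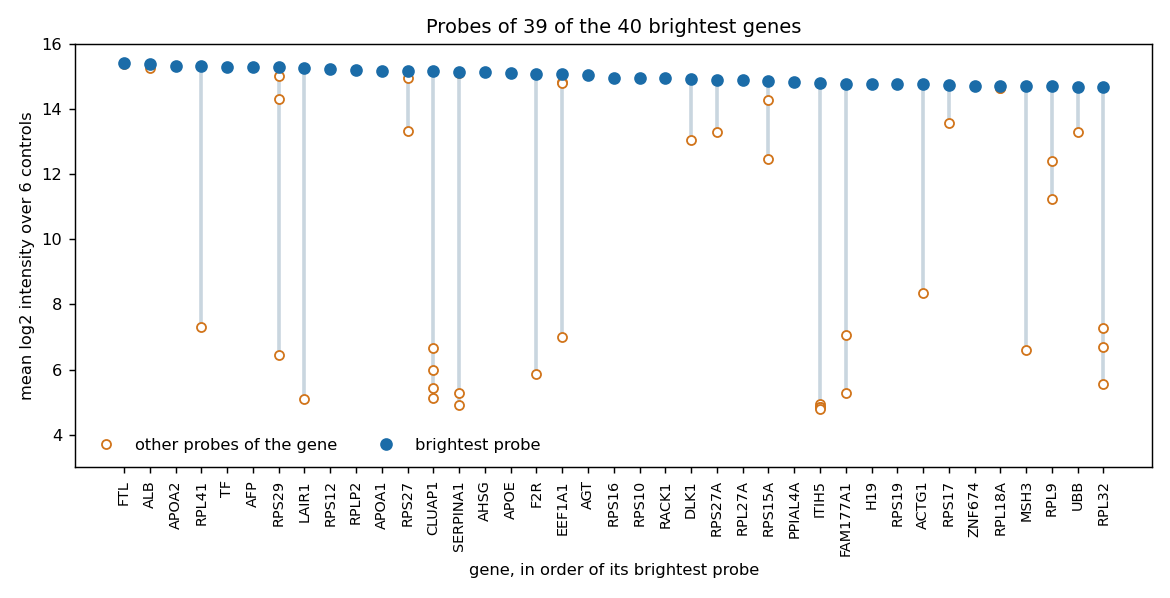
Mean log2 intensity over the 6 control arrays of each probe of 39 of the 40 brightest genes, ordered by the brightest probe (filled) with the other probes of the gene open and joined by a line. The filled points fall from 15.42 for FTL to 14.67 for RPL32, and the open points of LAIR1, ITIH5, F2R, CLUAP1, MSH3 and FAM177A1 lie at 7.07 or below.

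Oncofetal and liver tumour genes were above background more often than genes in general, with 22 of 30 (73.3%) on all 6 arrays and 2 on none, and a median level of 10.59 beside 5.70 for all genes. AFP ranged from 15.17 to 15.47 with a median of 15.29, and no control array stood apart. Quantile normalization gives each rank the same value on every array, so genes near the top have little room to vary. For example, ALB on dilution buffer 1 and 3 and RPL41 on empty liposomes 2 held the same value, 15.54. How steady AFP was between tumours can therefore not be read from this range. DLK1, a fetal surface protein related to Notch ligands, ranged from 14.79 to 15.05 with a median of 14.92. H19, an imprinted long non-coding RNA of fetal liver, ranged from 14.49 to 15.07 with a median of 14.74. It was highest on dilution buffer 2 and 3 and lowest on dilution buffer 1 and empty liposomes 3, so both groups overlapped. GPC3, the cell-surface proteoglycan glypican-3, ranged from 12.43 on dilution buffer 3 to 13.29 on empty liposomes 2 with a median of 12.90.

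Other members of the same list were bright. SPINK1, a trypsin inhibitor secreted by many liver cancers, averaged 13.96 ± 0.44, CD24 13.63 ± 0.24 and the adhesion molecule EPCAM 13.10 ± 0.29. LIN28B, an RNA-binding protein that blocks maturation of let-7 microRNAs, averaged 10.86 ± 0.21. The fetal mRNA-binding proteins IGF2BP2 and IGF2BP3 averaged 11.15 ± 0.29 and 10.33 ± 0.36, while IGF2BP1 and SALL4, a transcription factor of embryonic cells, were above background on 5 arrays and LGR5, a stem cell receptor, on 2. TERT, the catalytic subunit of telomerase, was above background on none of the 6, at a level of 4.64, and neither was FGF19, a growth factor for hepatocytes. For TERT, this says that its signal could not be told from background on these arrays. Cancer-testis antigens, a set of germline proteins found in some tumours, were mostly dim, with 2 of 25 (8.0%) on all 6 and 14 (56.0%) on none. MAGEA12 averaged 9.41 ± 0.96 and ranged from 8.29 on empty liposomes 2 to 10.65 on empty liposomes 3. MAGEA6 averaged 6.32 ± 0.37, and at a detection p under 0.01 MAGEA12 alone was on all 6. The MAGEA genes are close in sequence and the probes may not tell them apart. The members on none included MAGEA4, MAGEA9, MAGEA10, MAGEB2, GAGE1 and GAGE2A.

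**Figure D2:**
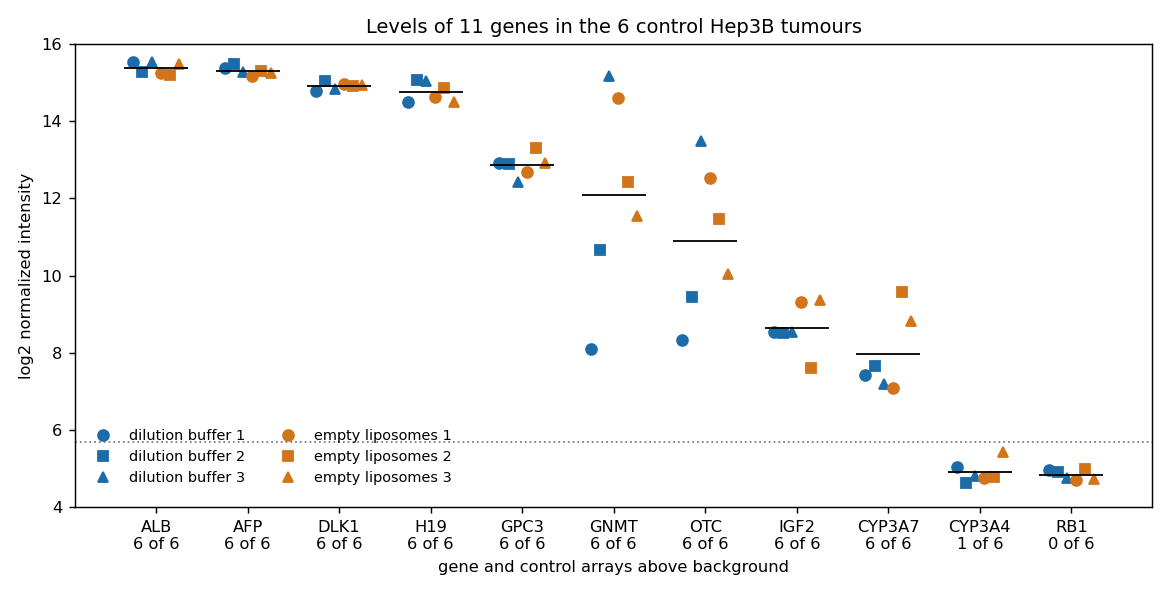
Log2 normalized intensity of 11 genes on the 6 control arrays, with blue for dilution buffer, orange for empty liposomes, the marker shape for the replicate number, a black line at the mean and a dotted line at the median of all genes, 5.70. ALB, AFP, DLK1 and H19 lie between 14.49 and 15.54 on each array, GNMT and OTC are spread widely, and CYP3A4 and RB1 lie at 5.42 or below.

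Among the fetal forms of liver genes, 11 of 18 (61.1%) were above background on all 6, and among their adult counterparts 5 of 12 (41.7%). IGF2, insulin-like growth factor II, stood at 8.54, 8.50 and 8.55 after dilution buffer and at 9.32, 7.62 and 9.37 after empty liposomes. The dilution buffer arrays agreed closely and the empty liposome arrays lay on both sides of them. Its other 2 probes averaged 6.65 and 4.62, the last above background on no array, so the level of IGF2 depends on the probe. IGF1, the adult growth factor made by hepatocytes, was above background on 1 array at a mean of 5.07, and IGFALS, its carrier subunit, averaged 5.51. The glycolytic isozymes of fetal liver or of other tissues, ALDOA, ALDOC, PKM and HK2, averaged 12.46, 10.61, 9.48 and 9.25. Of the liver isozymes, PKLR averaged 10.65 ± 0.41, while the liver glucose transporter SLC2A2 passed on 5 arrays. The fetal globin HBG1 and the embryonic globins HBE1 and HBZ were above background on none of the 6, and the fetal globin HBG2 on 2 at a mean of 5.24.

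The P450 pair CYP3A7 and CYP3A4, the fetal and the adult form of the main drug-oxidising enzyme, differed in detection. CYP3A7 stood at 7.44, 7.66 and 7.18 after dilution buffer and at 7.09, 9.57 and 8.83 after empty liposomes, above background on all 6. Empty liposomes 2 and 3 were the highest and empty liposomes 1 the lowest, so the groups overlapped. At a detection p under 0.01, CYP3A7 was no longer above background on all 6. CYP3A4 ranged from 4.62 to 5.42 with a median of 4.81 and was above background on empty liposomes 3 only. Its MRX34 values, 4.68 to 4.85, were above background on none of the 3 arrays. CYP3A5, the other adult family member of liver, passed on 5 arrays at a mean of 6.40. Each of the CYP3A7, CYP3A4 and CYP3A5 levels comes from 1 probe.

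The promoters of the fetal and adult pairs AFP and ALB, and CYP3A7 and CYP3A4, are shown because the first pair was bright together and the second pair was detected differently. They are the 150 bases before the annotated start in RefSeq's annotation of GRCh38.p14, written 5′ to 3′ on the strand of the gene. AFP lies at chr4:73436071-73436220 on the plus strand, ALB at chr4:73404137-73404286 on the plus strand, CYP3A7 at chr7:99735197-99735346 on the minus strand and CYP3A4 at chr7:99784185-99784334 on the minus strand. Capitals mark 2 motifs: TATAAA, the core of the TATA box, and GTTAAT, a motif known from liver promoters.
AFP: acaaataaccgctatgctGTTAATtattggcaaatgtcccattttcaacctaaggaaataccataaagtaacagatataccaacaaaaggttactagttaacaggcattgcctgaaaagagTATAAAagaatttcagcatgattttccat
ALB: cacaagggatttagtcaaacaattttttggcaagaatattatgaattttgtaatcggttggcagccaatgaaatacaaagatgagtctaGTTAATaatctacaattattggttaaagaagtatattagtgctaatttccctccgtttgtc
CYP3A7: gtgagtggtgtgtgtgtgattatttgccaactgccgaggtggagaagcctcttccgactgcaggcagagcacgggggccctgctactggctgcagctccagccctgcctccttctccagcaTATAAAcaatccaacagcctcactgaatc
CYP3A4: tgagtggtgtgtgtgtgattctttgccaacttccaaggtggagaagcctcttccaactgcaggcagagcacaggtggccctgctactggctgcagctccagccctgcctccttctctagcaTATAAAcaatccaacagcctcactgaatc

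In these windows CYP3A7 and CYP3A4 were 94.7% identical, with 143 matching positions, 6 mismatches and 2 gap positions, and both carried TATAAA with its first base at position -29 from the start. AFP and ALB were 51.6% identical. AFP carried TATAAA at -29 and GTTAAT at -132, and ALB carried GTTAAT at -61 and no TATAAA. The motifs can share an end base, and in these windows they did not overlap. Over all 27305 promoters in the table, searched on both strands, 3.76% held TATAAA in the last 50 bases before the start and 6.22% held GTTAAT in the last 250. Of the hepatocyte plasma protein genes with a promoter there, 5 of 24 (20.8%) held TATAAA and 5 of 24 (20.8%) held GTTAAT. Other lists differed widely. TATAAA was held by 0.0% of coagulation genes, 38.1% of P450 genes and 42.9% of muscle and heart markers. GTTAAT was held by 3.7% of the urea cycle, amino acid and sugar genes, 37.5% of acute phase genes and 0.0% of muscle and heart markers. Among protein-coding genes above background on all 6 arrays, the shares were 2.21% and 3.31%, and among those on none 8.30% and 6.76%. A match is a match of letters, not a measured binding site.

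Genes for plasma proteins were detected as a group, with 24 of 30 (80.0%) above background on all 6 and 7 among the 100 brightest genes. TTR, the thyroid hormone and retinol carrier transthyretin, averaged 13.98 ± 0.31, GC, the vitamin D binding protein, 14.66 ± 0.45, and RBP4, the retinol binding protein, 12.10 ± 0.34. ITIH4 was the member above background on none. The coagulation list had 16 of 21 (76.2%) on all 6. SERPINF2, the plasmin inhibitor, averaged 12.96 ± 0.41, VKORC1, which recycles vitamin K, 12.61 ± 0.20, SERPINC1, antithrombin, 12.15 ± 0.45, and SERPIND1, heparin cofactor II, 11.86 ± 0.46. Prothrombin (F2) and factors V, VII, X and XII (F5, F7, F10 and F12) were above background on all 6, whereas factor IX (F9) passed on 1 array at a mean of 4.87 and F13A1, a factor XIII subunit made mainly outside hepatocytes, on none.

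Acute phase proteins, which the liver makes more of under inflammation, were divided. The fibrinogen genes FGA, FGB and FGG averaged 12.86, 12.70 and 13.08, the fibrinogen-like FGL1 13.70, and the orosomucoid genes ORM1 and ORM2, which are nearly identical copies, 11.81 and 11.54. In contrast, the serum amyloid genes SAA1 and SAA2 and the lipopolysaccharide binding protein LBP were above background on none, C-reactive protein (CRP) on 1 array at a mean of 5.03, and haptoglobin (HP) on 4 at 5.57. In all, 8 of 14 (57.1%) were on all 6. The mitochondrial enzyme SOD2, counted in this list, stood at 13.39 on dilution buffer 3 and 12.83 on empty liposomes 1 and at 10.47 to 11.63 on the other 4.

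Complement genes had 19 of 28 (67.9%) above background on all 6. Factor B (CFB) averaged 12.05 ± 0.40, C2 11.47 ± 0.54, and C4BPB and C8G 11.49 ± 0.20 and 11.26 ± 0.19. C7, C9 and the C1q chains C1QB and C1QC were on none. C3, the central component of the cascade, averaged 8.74 ± 0.30. Of the genes of lipoprotein handling, 19 of 24 (79.2%) were on all 6. APOA1, APOB and APOC1 averaged 15.18 ± 0.10, 13.83 ± 0.59 and 13.83 ± 0.43. APOH, beta-2-glycoprotein I, ranged from 12.22 on empty liposomes 3 to 14.28 on empty liposomes 2. SCARB1, the receptor that takes up cholesterol from high-density lipoprotein, ranged from 10.64 to 11.87. APOD, APOL1 and the transfer protein CETP were above background on none.

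Cytochrome P450 enzymes were the liver list with the lowest share on all 6, 8 of 30 (26.7%), below the 41.2% of all genes. Their median level was 5.31. CYP27A1, which oxidises the cholesterol side chain, averaged 11.93 ± 0.20, CYP2J2, an arachidonic acid epoxygenase, 10.56 ± 0.25, and CYP51A1, a step of cholesterol synthesis, 9.24 ± 0.45. The enzymes on none were CYP2A6, CYP2B6, CYP2C19, CYP4F11, CYP7A1 (the rate-limiting enzyme of bile acid synthesis) and CYP17A1. CYP2C8 and CYP1A1 were each above background on 1 array. CYP1A1 stood at 8.01 on empty liposomes 1 and at 5.07 or below on the other controls, while CYP2C8 stood at 6.62 on dilution buffer 3. At a detection p under 0.01, 5 of the 30 were on all 6 and 10 on none. CYP2E1, the ethanol-oxidising P450, passed on 2 arrays and CYP1A2 on 3.

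The enzymes of conjugation and alcohol metabolism had 20 of 32 (62.5%) on all 6. ALDH1A1, which makes retinoic acid, averaged 12.57 ± 0.19, UGT2B7, a glucuronosyltransferase, 12.56 ± 0.20, and the sulfotransferases SULT1A1 and SULT2A1 11.34 ± 0.09 and 11.12 ± 0.25. ADH1A, an alcohol dehydrogenase of fetal liver, stood at 11.25 and 10.93 on empty liposomes 2 and 3 and at 8.65 to 9.74 on the other 4. The related ADH1B and ADH1C were above background on none, as were UGT1A9, UGT2B15, CES1 and NNMT. These families hold near-identical copies, so probes may be shared between members.

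In the urea cycle, amino acid and sugar metabolism, 24 of 34 (70.6%) were on all 6. CBS, which starts the conversion of homocysteine to cysteine, averaged 12.39 ± 0.25, and AHCY, which splits S-adenosylhomocysteine, 11.89 ± 0.12. CPS1, ASS1 and ARG1 of the urea cycle averaged 11.84, 11.47 and 9.59. SDS, a serine dehydratase, and GYS2, the liver glycogen synthase, were on none, and PCK1 and G6PC1 of glucose synthesis were on some. Among surface proteins, 15 of 22 (68.2%) were on all 6. The asialoglycoprotein receptor subunits ASGR1 and ASGR2 averaged 13.92 ± 0.15 and 12.98 ± 0.24, and the export pump ABCC3 10.62 ± 0.14. SLC10A1, the bile acid importer, and ABCB11, the bile salt export pump, were above background on none.

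Of the hepatocyte transcription factors, 27 of 34 (79.4%) were on all 6 and 0 on none. XBP1, a regulator of secretory capacity, averaged 13.15 ± 0.13, CEBPA 12.51 ± 0.27, and the forkhead factors FOXA3, FOXA2 and FOXA1 12.08 ± 0.18, 11.81 ± 0.12 and 11.68 ± 0.25. Of 3 FOXA2 probes, 2 were on none. CEBPB, which responds to cytokines, stood at 13.23 on dilution buffer 3 and 12.83 on empty liposomes 1 and at 10.86 to 11.98 on the other 4. HNF4A, ONECUT1, PROX1, GATA6 and the nuclear receptors NR1I2, NR1I3 and PPARA were above background on some arrays. NR1I2 and NR1I3, known as PXR and CAR, switch on P450 genes in response to drugs.

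**Figure D3:**
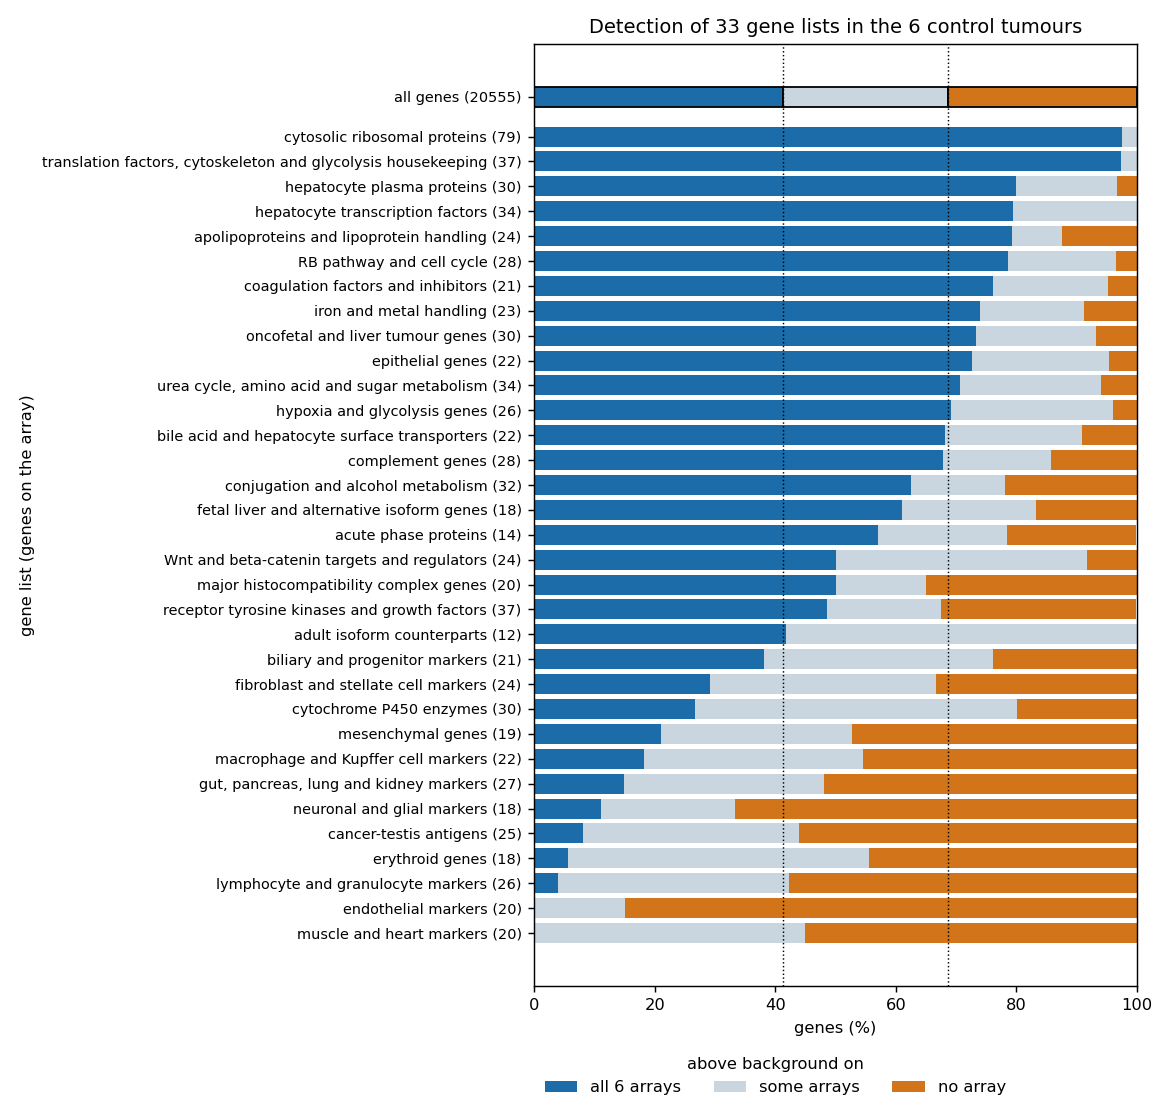
Share of the genes of each list (number on the array in brackets) above background on all 6 control arrays (blue), on some (grey) and on none (orange), with all 20555 genes at the top and dotted lines at their shares. Ribosomal and liver secretory lists reach past the 41.2% of all genes, and endothelial, muscle and lymphocyte lists stay below it, at 0.0%, 0.0% and 3.85%.

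RB1, the retinoblastoma protein, ranged from 4.72 to 4.98 with a median of 4.83 and was above background on no control array and no MRX34 array, by its single probe. It was the member on none in a list of 28 genes of its pathway and the cell cycle, of which 22 (78.6%) were on all 6. CDK4, PCNA and MCM5 averaged 12.12 ± 0.28, 11.61 ± 0.13 and 11.44 ± 0.20. CDKN2A, which encodes the inhibitors p16 and p14ARF, averaged 11.38 ± 0.89 by its brightest probe and ranged from 9.79 on empty liposomes 2 to 12.28 on dilution buffer 1. Its other probes averaged 8.78 and 4.69, the last above background on no array, and which transcript each measures was not checked. MYC averaged 11.07 ± 0.20.

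Receptor tyrosine kinases and growth factors had 18 of 37 (48.6%) on all 6, close to the share of all genes. FGFR3 averaged 13.16 ± 0.20, FGFR4, the receptor of FGF19 in liver, 11.48 ± 0.28, ERBB3 10.67 ± 0.21 and PDGFRB 9.99 ± 0.30. FGFR3 had a second probe at 5.28 that passed on 1 array, and 1 of 3 FGFR4 probes was on none, so these levels rest on the probe shown. The members on none numbered 12, among them ERBB4, FGFR1, FGFR2, MST1R, KIT and KDR. Genes of Wnt signalling had 12 of 24 on all 6. The secreted Wnt inhibitors DKK1 and DKK4 averaged 12.97 ± 0.35 and 9.03 ± 0.43, and GSK3B and AXIN1 of the beta-catenin destruction complex 9.40 ± 0.20 and 8.68 ± 0.23. APC of the same complex and the inhibitor WIF1 were on none. Hypoxia and glycolysis genes had 18 of 26 (69.2%) on all 6, with LDHA, ALDOA, PGK1 and BNIP3 at 13.35, 12.46, 10.96 and 10.71. SLC2A3, a glucose transporter, was on none.

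Iron and metal genes had 17 of 23 (73.9%) on all 6. Beside FTL and TF, the transferrin receptor TFRC averaged 11.22 ± 0.20 and the zinc and iron importer SLC39A14 11.16 ± 0.24. BMP6, which induces hepcidin, and MT1M were on none. Genes of antigen presentation had 10 of 20 on all 6. B2M, the light chain of class I molecules, averaged 12.73 ± 0.22, HLA-F 9.76 ± 0.47 and HLA-E 9.53 ± 0.24. The class II chains HLA-DRB1, HLA-DPA1, HLA-DPB1 and HLA-DQA1, their activator CIITA, and NLRC5 and CD274 were above background on none. CD74, the class II invariant chain, averaged 9.41 ± 0.31 by its brightest probe, and another of its 3 probes was on none. HLA genes vary between genomes and resemble each other, so these levels are uncertain.

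Epithelial genes had 16 of 22 (72.7%) on all 6 and mesenchymal genes 4 of 19 (21.1%). CLDN1, a tight junction protein, averaged 12.41 ± 0.38, KRT8 11.47 ± 0.22, CGN, cingulin, 11.36 ± 0.27 and CDH1, E-cadherin, 11.31 ± 0.25. GRHL2 was the member on none. VIM and CDH2, the mesenchymal filament protein vimentin and N-cadherin, averaged 11.47 ± 0.13 and 10.62 ± 0.24, so that both cadherins were above background on each array. ITGA5 and TNC averaged 7.84 and 7.41. FN1, fibronectin, which hepatocytes also secrete, was above background on none by any of its 3 probes, as were CDH11, ZEB1, SNAI1, TWIST1 and MMP2. Biliary and progenitor markers had 8 of 21 (38.1%) on all 6. EPCAM, PROM1, SOX4 and SOX9 averaged 13.10, 11.28, 11.10 and 9.74, and the biliary keratin KRT19 9.26 ± 0.32. GGT1 and KRT23 were also on all 6. The paired keratin KRT7 and CLDN4, MUC5B and BICC1 were on none.

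Markers of stromal and blood cells were read with human probes. In each list the share on all 6 was below the 41.2% of all genes, by an amount that differed between lists. For endothelial cells 0 of 20 markers were above background on all 6 and 17 (85.0%) on none, among them VWF, CDH5, KDR, FLT1, FLT4 and TEK. The mean level of the list lay between 4.78 and 4.88 on the control arrays and at 4.83 on the MRX34 arrays. For fibroblasts and stellate cells 7 of 24 (29.2%) were on all 6. FBLN1, RELN and BGN averaged 11.33, 11.31 and 11.13, COL5A2 10.41, PDGFRB 9.99, DCN 8.02 and PDGFRA 7.79. Of the same list, COL3A1, COL5A1, ACTA2, LUM, POSTN, DES, DPT and FBN1 were on none. COL1A1 passed on 3 arrays at a mean of 5.11 and COL1A2 on 1 at 5.01. Collagen genes were thus found among the detected, the partly detected and the undetected members. DCN, decorin, ranged from 5.67 on dilution buffer 1 to 9.67 on empty liposomes 1, with dilution buffer 3 at 9.40, and 1 of its 3 probes was on none. The mean of this list ran from 6.39 to 6.61 after dilution buffer, 6.41 to 6.53 after empty liposomes and 6.31 to 6.40 after MRX34.

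For macrophages and Kupffer cells 4 of 22 (18.2%) were on all 6: CD68 at 10.98, AIF1 at 9.31, CD14 at 7.75 and LYZ at 6.85. The members on none numbered 10, among them MARCO, CLEC4F, MSR1, ITGAM, ITGAX and FCGR1A. CD68 is a lysosomal protein and CD14 is also secreted by hepatocytes. The mean of the list lay between 5.72 and 5.98 on the control arrays and between 5.80 and 5.98 on the MRX34 arrays. Of the lymphocyte and granulocyte markers 1 of 26 (3.85%) was on all 6, FCGR3B at 7.13, and 15 (57.7%) were on none, among them PTPRC, CD3E, CD3G, CD8A and CD8B. FCGR3B ranged from 6.01 to 8.20 and its second probe was on none. Of the erythroid genes 1 of 18 (5.56%) was on all 6. HBA2, an alpha-globin gene, averaged 14.52 ± 0.52 and was among the 100 brightest genes, with 13.67 on dilution buffer 2 and 15.00 on dilution buffer 3. Its second probe averaged 6.86 and was also above background on all 6. The near-identical HBA1 averaged 5.26, and the beta-globin HBB passed on 4 arrays at a mean of 5.61. HBG1, HBE1, HBZ, GYPB, EPB42, SLC4A1 and GATA1 were on none, and HBA2 was the only 1 of the 18 on all 6. Which RNA bound the bright HBA2 probe was not tested. Without empty liposomes 1, 3 erythroid genes and 2 lymphocyte and granulocyte genes were above background on all remaining controls.

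Lists for other tissues served as a comparison, although some of their members may also be made in liver. Of muscle and heart markers 0 of 20 were on all 6 and 11 (55.0%) on none. Of neuronal and glial markers 2 of 18 (11.1%) were on all 6, MBP at 9.93 and SNAP25 at 7.35, and 12 (66.7%) were on none. Of gut, pancreas, lung and kidney markers 4 of 27 (14.8%) were on all 6: VIL1, the brush border protein villin, at 10.41, and the pancreatic enzymes CELA3A, CPA1 and AMY2A at 8.26, 7.79 and 6.86. AMY2A had 4 probes, of which 2 were on none.

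Between control tumours most transcripts varied little. Among 8437 genes whose shown probe was above background on all 6, the median SD over the 6 arrays was 0.28 log2 units, with quartiles of 0.203 and 0.39. Spread went with level: the median SD was 0.226 among the 2110 brightest genes, with means of at least 10.35, and 0.381 among about as many of the dimmest. At the very top of the scale, quantile normalization itself leaves little room for spread. A range over 4-fold was seen in 278 genes (3.3%) and over 16-fold in 21. The steadiest of the 2110 brightest genes were DNAJB11, a chaperone of the endoplasmic reticulum, with an SD of 0.0314, and ZFP91, TMEM98, CHKA, TMSB4X, NOP10, RACK1 and PHF5A. The 12 genes with the highest SD were chosen by that spread, which is given as a description. GNMT, glycine N-methyltransferase, which uses S-adenosylmethionine in liver, stood at 8.09, 10.67 and 15.16 after dilution buffer and at 14.60, 12.43 and 11.54 after empty liposomes, a range of 134-fold. OTC, ornithine transcarbamylase of the urea cycle, stood at 8.33, 9.45 and 13.47 after dilution buffer and at 12.54, 11.48 and 10.06 after empty liposomes, a range of 35.3-fold. For both genes dilution buffer 3 was highest, empty liposomes 1 next and dilution buffer 1 lowest, and the groups overlapped.

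**Figure D4:**
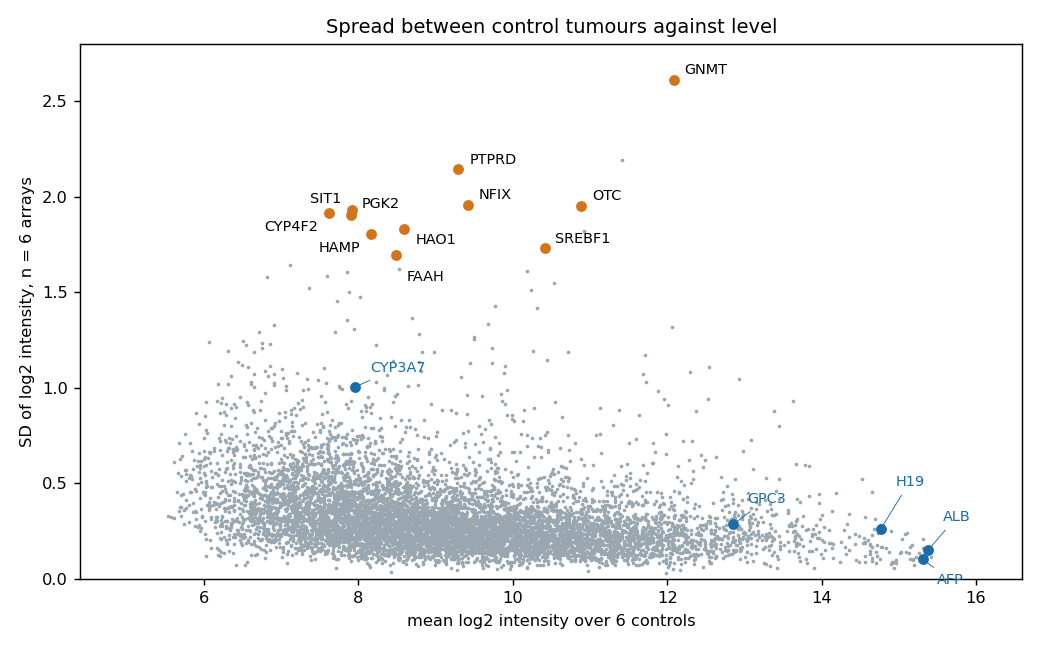
SD over the 6 control arrays against the mean log2 intensity for 8437 genes above background on all 6, with 11 genes of high SD in orange (other points of like SD are not labelled) and tumour markers and CYP3A7 in blue. GNMT is at an SD of 2.61 and ALB and AFP at 0.15 and 0.10, near the top of the scale, where quantile normalization limits the spread.

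Others of these genes were also highest on dilution buffer 3 and next on empty liposomes 1, among them PTPRD, a receptor phosphatase, NFIX, a transcription factor, SIT1, a lymphocyte adaptor, CYP4F2, PGK2, a phosphoglycerate kinase of testis, HAO1, glycolate oxidase of liver, HAMP, the iron hormone hepcidin, SREBF1, a regulator of lipid synthesis, and FAAH, which degrades fatty acid amides. For 12 of 12 genes, dilution buffer 3 and empty liposomes 1 were the highest control arrays, and for 11 of 12 dilution buffer 1 was the lowest, with dilution buffer 2 the lowest for SIT1. HAMP stood at 5.74, 6.58 and 10.70 after dilution buffer and at 9.30, 8.61 and 8.07 after empty liposomes. On the 3 MRX34 arrays, 12 of 12 genes were below their levels on dilution buffer 3 and empty liposomes 1, for example 7.59 to 11.81 for GNMT and 7.87 to 10.19 for OTC. The genes were chosen for their spread over the controls, so further arrays would be likely to fall below the highest control values. This count is therefore no result about MRX34. Of the 278 genes with a range over 4-fold, 215 (77.3%) were highest on dilution buffer 3 or empty liposomes 1, beside 36.5% of all 8437 genes. These 2 arrays were also the ones with the fewest genes above background and the lowest mean intensity, and the part of either in this pattern was not tested. The 8437 genes had to pass on all 6 arrays, so genes low on these 2 arrays could drop out of the count. The shares therefore cannot show whether wide-range genes were more often high than low on them.

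Dilution buffer 3 or empty liposomes 1 was the lowest array for 48 (17.3%) of the 278 wide-range genes and for 47.8% of all 8437. Lower levels on both were also seen in genes outside the 8437, among them EPO and ANKRD37, which passed on 4 arrays, and CA9, which passed on 5. EPO, the hormone erythropoietin, which Hep3B is known to make under low oxygen, stood at 7.68, 7.11 and 5.21 after dilution buffer and at 4.74, 7.41 and 7.28 after empty liposomes. CA9, a carbonic anhydrase induced by hypoxia, stood at 9.16, 8.48 and 6.11 and at 5.89, 8.44 and 8.71 in the same order. ANKRD37, another hypoxia target, stood at 7.69, 7.20 and 5.13 and at 4.75, 7.52 and 7.42. For each of the 3 genes dilution buffer 3 and empty liposomes 1 lay below the other 4 arrays, and the MRX34 arrays lay within or above those 4. They were singled out from the hypoxia list after their values were seen. Not all genes of that list did this. EGLN1, an oxygen-sensing prolyl hydroxylase, and P4HA2, a collagen prolyl hydroxylase, were highest on dilution buffer 3 and empty liposomes 1, at 9.02 and 9.52 and at 8.89 and 8.94. The metallothioneins MT2A and MT1X, which bind zinc and copper, varied along other lines, with MT2A at 8.34 and 9.55 on empty liposomes 2 and 3 and at 10.23 to 11.61 on the other 4.

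**Figure D5:**
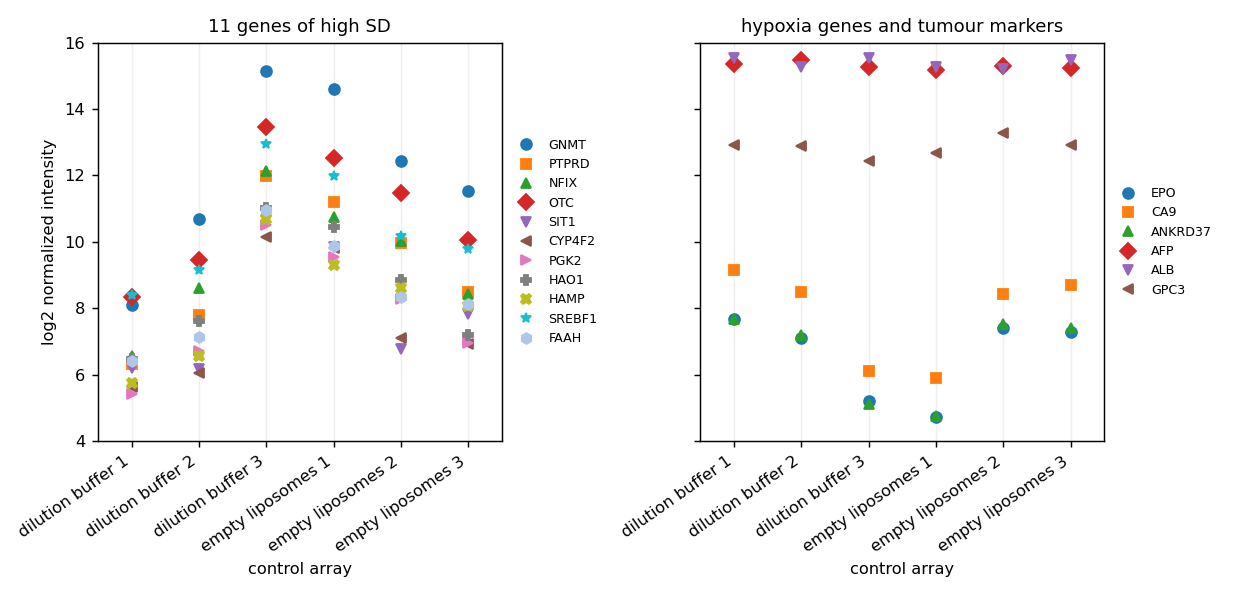
Log2 normalized intensity on each of the 6 control arrays for 11 of the 12 genes with the highest SD (left) and for 3 hypoxia genes and 3 tumour markers (right). On dilution buffer 3 and empty liposomes 1 these genes are at their highest and EPO, CA9 and ANKRD37 at their lowest, while AFP, ALB and GPC3 stay between 12.43 and 15.54. AFP and ALB lie near the top of the scale, where quantile normalization limits the spread.

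The 2 control articles were also compared with each other. With 3 arrays each, finding no difference does not show that the groups are equal. With limma's moderated test and Benjamini-Hochberg adjustment over 15387 genes, 0 (0.0%) differed between empty liposomes and dilution buffer at an adjusted p under 0.05, and the smallest adjusted p was 0.766. At an unadjusted p under 0.05, 887 genes (5.76%) were found. That number depended on single arrays: it was 2032 without empty liposomes 2, 543 without empty liposomes 1 and 457 without dilution buffer 2, and 0 genes were called in each case. Genes above background per array averaged 10928.7 ± 1439.9 after empty liposomes and 11896.3 ± 924.3 after dilution buffer (SD, n = 3 each). The two-sided exact permutation test gave p = 0.4, where the smallest possible with 20 choices is 0.1.

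The control profile was also set beside the MRX34 tumours. Genes chosen for passing on all 6 controls would mostly pass on further arrays, so their share is no test of closeness. Of the 8472 genes above background on all 6 controls, 8347 (98.5%) were so on all 3 MRX34 arrays and 0 on none of them. Of the 6438 on none of the controls, 6009 (93.3%) were on none of the MRX34 arrays and 2 on all 3, both of them placeholder names. Genes above background averaged 11656.7 ± 635.2 on the 3 MRX34 arrays and 11412.5 ± 1205.0 on the 6 controls, and the two-sided exact permutation test gave p = 0.821. Between MRX34 and the mean of both control groups limma called 0 (0.0%) of 15387 genes at an adjusted p under 0.05, with 1711 (11.1%) at an unadjusted p under 0.05 and a smallest adjusted p of 0.0971. Without the second MRX34 array, 1058 genes had an unadjusted p under 0.05. On simulated data for this contrast, changes of 1 log2 unit were found in 24.6% of cases and those of 2 units in 84%, so most changes of the smaller size were missed. Other settings called up to 2 genes, THBS1 and CLRN3, and without dilution buffer 1 the test called THBS1, at an adjusted p of 0.0294 by limma. THBS1, the matrix protein thrombospondin 1, ranged from 8.49 to 9.72 on the controls and from 7.35 to 7.42 on the MRX34 arrays. CLRN3, a membrane protein of the clarin family, ranged from 4.97 to 6.16 on the controls and from 7.69 to 8.27 on the MRX34 arrays. For both genes the 2 ranges did not overlap. Both were named because a test called them, so separate ranges add no further support. How many of all genes have separate ranges was not counted, here or for IGF2 below. For the tumour markers the MRX34 arrays spanned 15.21 to 15.40 for AFP, 12.65 to 13.37 for GPC3 and 14.46 to 14.57 for H19, each overlapping the range of the controls. IGF2 stood at 6.54 to 7.57 on the MRX34 arrays, below its lowest control value of 7.62, and did not pass the adjusted test.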

How the data were processed

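Total RNA of 9 whole tumours was measured on Illumina expression arrays. The main table deposited by the authors holds an intensity and a detection p-value per probe and array, per the file headers. From the values, its intensities (50.3 to 47789) were already quantile normalized but not background-subtracted, and the p-value moved in steps of 1 in 770. A second deposited table holds background-subtracted intensity, reaching -40.2, and served as an alternative. The scanner software is not given in the sources used here.

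Of 47322 probes, 43906 carried a symbol, and 20555 genes matched a RefSeq name (GRCh38.p14). In limma 3.58.1 (R 4.3.3) intensities were corrected by normexp with the detection p-values, offset 16, quantile normalized and taken to log2. A gene was shown by its brightest probe. Contrasts used group means over all 9 arrays, 15387 genes with a probe above background on at least 3 arrays, and Benjamini-Hochberg adjustment, and were tested on simulated data. Array-level counts were compared by exact permutation. Promoters were read with Python 3.11.15.

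Named genes were the 40 brightest, the 4 brightest detected and up to 6 undetected members of each list (all where 8 or fewer, and all detected members of other cell types where 10 or fewer), the 12 genes of highest and 8 of lowest SD, and a short list of liver tumour markers. Any other gene was named after its values were seen. Members and lists were chosen with earlier results of these data known. Correlations of deviations between same-numbered arrays were -0.189, 0.299 and -0.319 for dilution buffer and empty liposomes, -0.065, 0.144 and -0.15 for dilution buffer and MRX34, and 0.441, 0.491 and 0.281 for empty liposomes and MRX34. Only the last 2 groups had positive values throughout, and they were not compared on their own. Unlike-numbered arrays of dilution buffer and empty liposomes reached 0.341 and 0.317, so such values cannot decide whether arrays were paired. The labels state no pairing, and both contrasts were fitted without a block. Alternatives covered background correction, normalization, filters, detection thresholds, the variance model and leaving out each array. Some genes are not reported here. The precision of array values is limited by the number of arrays.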

Additional observations from a re-analysis of the deposited data

Results flagged for a closer look

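The values of 65 named genes and array measures over the 6 control arrays were searched for an array far from the others, by its gap to the nearest value as a share of the whole range. Chance alone flags about 1 group in 20, and 2 genes were found, both of them ribosomal protein genes. RPS29 stood at 15.51 on empty liposomes 2, with a gap of 0.73 of its range. RPL27A was highest on empty liposomes 1 at 15.05, with a gap of 0.748.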

How the results depend on the processing

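The count of genes above background on all 6 controls, 8472, was 7178 at a detection p under 0.01, 10182 for at least 5 of 6 arrays, 8437 by the brightest probe alone, 8338 over all 9 arrays and 8486 to 9997 with 1 control array left out. The count on none, 6438, was 8414, 7886, 6485, 6009 and 6584 to 6931 under the same changes. Of the 68 list counts, 54 stayed within 1.5 times at a detection p under 0.01, 55 under the looser rule for arrays, 68 by the brightest probe and 67 over all 9 arrays. Of 408 list counts with 1 array left out, 394 did. Of the 40 brightest genes, 38 to 40 were shared under each alternative. Between empty liposomes and dilution buffer limma called 0 genes under each alternative. Between MRX34 and the controls 2 were called from uncorrected intensities, 2 where normexp took an offset of 50 and no detection p-values, 2 from the series table, 1 with a trended robust variance, and 0 to 1 with 1 array left out. The cause was not tested. With the replicate number as a block, 0 genes were called in either contrast, and 1293 and 1928 genes had an unadjusted p under 0.05. Signal near background limits calls of absence, which say only that a probe could not be told from background.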

Other observations

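Ribosomal protein genes were above background most uniformly, with 77 of 79 (97.5%) on all 6 control arrays, a median level of 13.87 and 39 among the 100 brightest genes. RPL10 and RPL28, subunits of the large ribosome, were on some arrays. Of the translation, cytoskeleton and glycolysis housekeeping genes 36 of 37 (97.3%) were on all 6, at a median of 13.35. PPIA, cyclophilin A, was the exception, above background on 5 arrays.

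CYP2D6, a drug-oxidising P450, and CYP3A43, a minor member of the CYP3A family, were singled out after their values were seen. CYP2D6 was highest on dilution buffer 3, stood at 9.07 on empty liposomes 1, and lay between 5.84 and 6.99 on the other 4 arrays. CYP3A43 stood at 4.75, 5.75 and 9.80 after dilution buffer and at 7.34, 6.56 and 5.16 after empty liposomes. Both were highest on dilution buffer 3 and next on empty liposomes 1, whereas CYP3A7 was lowest on these arrays, at 7.18 and 7.09.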
